A study of Mus musculus with 12 samples.

Results

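Sprr2h, Sprr1a, Scel, Ivl, Upk1b and Il1rn are 6 genes of squamous and urothelial differentiation, taken from the 54146 genes of each count table. They were listed because several of them differ between Cdk8 and Cdk19 knockout cells, so their differences in any comparison with knockout libraries are described here without a test. The RNA came from BMEL (bipotential mouse embryonic liver), a hepatic progenitor line isolated from a CDK8F/F mouse, whose Cdk8 alleles are floxed. All 12 libraries came from exponentially growing cells on collagen, in medium with serum, insulin, IGFII and EGF. The untransformed group is labelled Wild type with no transformation, the RasG12V group is Wild type cells transformed by H-RasG12V, and the Cdk8 knockout (Cdk8 -/-) and Cdk19 knockout (Cdk19 -/-) groups also carry H-RasG12V. Each group has 3 libraries. The labels do not say whether the libraries of a group came from separate cultures or whether a knockout is 1 clone, so p-values measure the spread between these libraries, which may be technical.

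In stratified squamous epithelia such as the epidermis, dying surface cells replace their membrane with the cornified envelope, a protein shell that transglutaminases crosslink. Involucrin (Ivl) is an early scaffold of that shell, the small proline-rich proteins (Sprr1a, Sprr2h) are crossbridging precursors in it, and sciellin (Scel) is another of its precursors. Uroplakin 1b (Upk1b) is a tetraspanin that forms part of the plaques on the surface of the bladder lining. The interleukin-1 receptor antagonist (Il1rn) binds the interleukin-1 receptor without signalling, and keratinocytes make it in abundance. Hepatocytes and bile duct cells build no cornified envelope. H-RasG12V is a constitutively active oncogene, and Cdk8 and Cdk19 are alternative kinases of the Mediator complex, which links transcription factors to RNA polymerase II.

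Sprr2h (ENSMUSG00000046259, chr3:92385685-92387324, plus strand), Sprr1a (ENSMUSG00000050359, chr3:92483952-92485895, minus strand) and Ivl (ENSMUSG00000049128, chr3:92570902-92573735, minus strand) lie within 188.1 kb of each other in GRCm38, in the epidermal differentiation complex, a cluster of cornified envelope genes. Scel (ENSMUSG00000022123) lies at chr14:103513342-103612797 on the plus strand, Upk1b (ENSMUSG00000049436) at chr16:38773184-38800328 on the minus strand and Il1rn (ENSMUSG00000026981) at chr2:24336853-24351494 on the plus strand. GENCODE M21 annotates all 6 as protein coding and places no other gene over any of them. Of the 50-base stretches of their longest transcripts, none occurs in another annotated transcript for 5 of the genes, and 13 of 1873 do for Ivl (0.69%).

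The promoters are shown because 5 of the 6 genes share a sequence feature that their choice did not use. The windows run from 250 bases before to 50 bases after the RefSeq start of transcription (build GRCm38.p6), read 5′ to 3′ on the gene's strand, and 5 of the 6 genes were matched. Upk1b was not matched. Capitals mark the AP-1 motif TGACTCA, the core site of Fos and Jun dimers, searched on both strands, so that its reverse complement TGAGTCA counts as well. The windows are Sprr2h (chr3:92385435-92385734, plus strand), Sprr1a (chr3:92485832-92486131, minus strand), Scel (chr14:103513091-103513390, plus strand), Ivl (chr3:92573686-92573985, minus strand) and Il1rn (chr2:24336610-24336909, plus strand, 1 of 3 windows for that gene).
Sprr2h: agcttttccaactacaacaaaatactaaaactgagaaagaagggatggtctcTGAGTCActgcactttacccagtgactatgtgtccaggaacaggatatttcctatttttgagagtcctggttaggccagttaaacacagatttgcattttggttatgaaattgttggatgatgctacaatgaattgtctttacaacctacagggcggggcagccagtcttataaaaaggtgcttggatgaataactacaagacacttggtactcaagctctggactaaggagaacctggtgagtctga
Sprr1a: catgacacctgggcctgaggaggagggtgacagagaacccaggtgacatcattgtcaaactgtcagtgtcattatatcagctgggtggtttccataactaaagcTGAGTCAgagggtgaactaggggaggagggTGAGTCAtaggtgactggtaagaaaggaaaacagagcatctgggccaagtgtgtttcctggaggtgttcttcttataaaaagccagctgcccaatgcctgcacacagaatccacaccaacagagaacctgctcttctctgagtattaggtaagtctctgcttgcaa
Scel: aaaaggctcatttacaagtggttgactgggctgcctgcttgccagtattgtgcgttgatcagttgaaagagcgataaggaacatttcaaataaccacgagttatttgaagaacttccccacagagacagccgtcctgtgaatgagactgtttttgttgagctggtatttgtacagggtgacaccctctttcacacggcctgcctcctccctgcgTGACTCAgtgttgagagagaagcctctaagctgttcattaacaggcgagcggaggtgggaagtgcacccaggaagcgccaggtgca
Ivl: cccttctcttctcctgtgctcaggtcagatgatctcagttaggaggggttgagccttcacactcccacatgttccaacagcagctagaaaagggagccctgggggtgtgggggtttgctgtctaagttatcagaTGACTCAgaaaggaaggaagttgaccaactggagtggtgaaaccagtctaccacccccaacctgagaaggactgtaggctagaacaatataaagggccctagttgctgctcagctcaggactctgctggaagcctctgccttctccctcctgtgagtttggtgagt
Il1rn: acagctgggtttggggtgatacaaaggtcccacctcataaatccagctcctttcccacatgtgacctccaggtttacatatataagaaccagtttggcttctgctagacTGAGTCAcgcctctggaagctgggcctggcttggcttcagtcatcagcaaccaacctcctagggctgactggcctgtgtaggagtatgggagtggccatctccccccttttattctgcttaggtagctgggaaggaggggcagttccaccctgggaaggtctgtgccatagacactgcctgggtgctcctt

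The motif begins at position -198 in Sprr2h, at -146 and -116 in Sprr1a, at -36 in Scel, at -116 in Ivl and at -141 in Il1rn, counted from the start of transcription. All 5 matched genes hold it in at least 1 window, against 5.95% of 27025 genes in the table. Among the 9956 matched genes that passed the filter on low counts the share was 4.82%. By window, 5 of the 7 windows of these 5 genes hold it (71.4%), against 5.20% of 32851 promoter windows of the same length. Of the 3 Il1rn windows only 1 holds it, the one printed. Among related genes, the other genes of the SPRR family held it in 6 of 12 cases, the other cornified envelope genes in 5 of 26, the uroplakin and bladder lining genes in 3 of 12 and the interleukin-1 family genes in 2 of 24. It was present in 1 of 10 keratin genes, in 0 of 17 transcription factor genes and in 0 of 2 desmosome genes. TATAAA, the TATA box core, searched on the gene's strand, begins at -29 in Sprr2h, -43 in Sprr1a and -29 in Ivl and does not overlap the AP-1 motif in any of them. These are the 3 genes of the chromosome 3 cluster. TATAAA was present in 8.32% of all windows and in 8 of the 12 other SPRR genes. A match describes the letters of these windows and shows no binding.

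**Figure D1:**
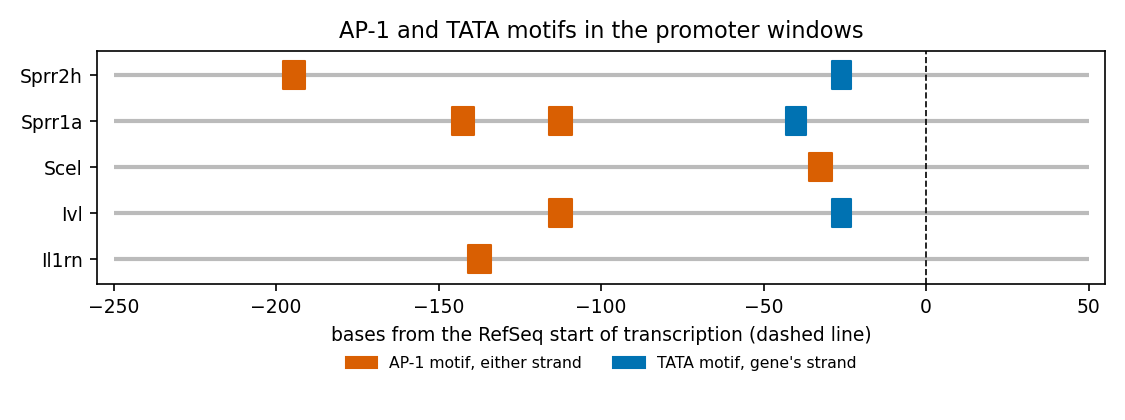
Positions of the AP-1 motif (either strand) and the TATA motif (gene's strand) in the promoter windows of the 5 matched genes, in bases from the RefSeq start of transcription. Each grey line is a window, from 250 bases before the start to 50 after it. The AP-1 motif appears in all 5 windows drawn, and the TATA motif appears in Sprr2h, Sprr1a and Ivl. For Il1rn 1 of 3 windows is drawn, the only one with the AP-1 motif.

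Libraries held between 24823560 and 36879661 gene counts, and 3 counts in a library stand for 0.0813 to 0.121 CPM (gene counts scaled to a common library size). A floor of 3 counts over a group was set in place of 0 only for the fold of Sprr2a3. Levels below are CPM with TMM scaling, which corrects library sizes for differences in RNA composition. That floor covers counting error alone, since the reads carry no molecular identifiers. Replicate 3 of the untransformed group and replicate 3 of the RasG12V group stood apart. The mean chi-square per gene against the other libraries of their group was 55.0 and 56.0 for the former and 92.6 and 84.6 for the latter, against 4.56 to 19.2 for all other pairs of replicates. Leaving out these libraries can change a gene's call or move its fitted fold change by over 1.5 times. Where it does so for a fold change printed for RasG12V against untransformed, the value without them is given as well. In comparisons with knockouts, the related genes that pass without them are counted, and some are named. Hras averaged 50.0 CPM in untransformed cells and 422 to 453 CPM in the transformed groups. Cdk8 averaged 42.8 CPM in the Cdk8 knockout against 54.5 in RasG12V, and Cdk19 averaged 49.8 CPM in the Cdk19 knockout against 75.2. Counts over a whole gene do not test a deleted part of it.

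Sprr1a stood far above the other 5 genes. Per kb of merged exon its mean level was 1552 CPM in untransformed, 1533 in RasG12V, 1344 in Cdk8 knockout and 729 in Cdk19 knockout cells. Over the 12 libraries it ranked between 16 and 53 by this measure among the 14283 genes that passed the filter on low counts, and it took 0.0434% to 0.171% of all gene counts. Sprr2h had the next highest mean in all 4 groups and ranked between 362 and 3134 across the libraries. Its mean was 25.9 CPM per kb in untransformed, 56.3 in RasG12V, 98.9 in Cdk8 knockout and 42.3 in Cdk19 knockout cells. In untransformed replicates 1 and 2, Ivl (33.2 and 31.0 CPM per kb) stood above Sprr2h (30.6 and 30.1). In untransformed replicate 3 Ivl was at 0.977 CPM per kb. Scel was at 11.6 to 18.9 CPM per kb, Ivl at 3.76 to 21.7 and Upk1b at 1.13 to 5.36. Il1rn had the lowest mean of the 6 in all 4 groups, at 0.193 to 1.89 CPM per kb, and in untransformed cells only 97 counts lay behind it. In bulk RNA, fewer cells that express a gene and less RNA per cell cannot be told apart.

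**Figure D2:**
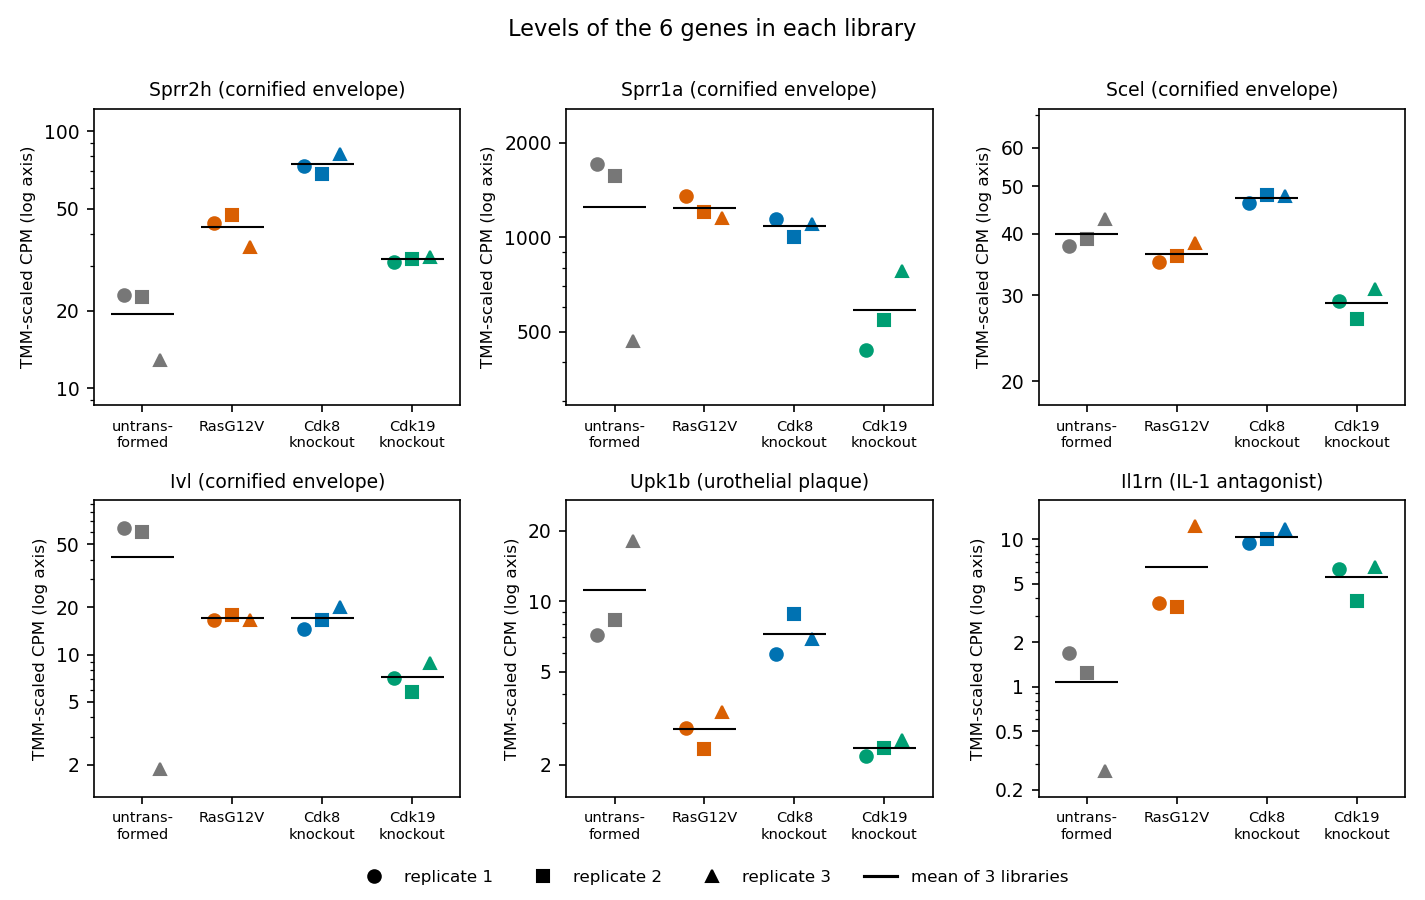
TMM-scaled CPM (log axis, a different range in each panel) of the 6 genes in each of the 12 libraries, by group, with the mean of 3 libraries as a line and the replicate number as the marker shape. Cdk8 knockout libraries lie above Cdk19 knockout libraries for all 6 genes, and untransformed replicate 3 lies apart for Ivl (1.88 against 63.7 and 59.7 CPM) and Sprr1a (469 against 1713 and 1570.0).

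Transformation by H-RasG12V is the comparison in which the 6 genes can be tested, since it holds no knockout library. In edgeR's quasi-likelihood test with Benjamini-Hochberg adjustment over 14283 genes, Sprr2h and Il1rn rose, Upk1b fell, and Scel, Sprr1a and Ivl did not pass. The 3 of 6 genes called compare with 23.4% of all genes tested, of which 11.9% were higher and 11.5% lower in RasG12V cells. For these 3 genes no RasG12V library fell within the untransformed range, against 32.3% of all genes tested. The median log2 fold change of the 6 genes was -0.08, beside 0 over all genes.

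Among the cornified envelope precursors, Sprr2h was at 23.0, 22.6 and 12.9 CPM in the untransformed libraries and at 44.0, 47.4 and 35.6 CPM in the RasG12V libraries. All RasG12V libraries lay above all untransformed ones, and replicate 3 was the lowest in both groups. The means were 19.5 ± 5.74 and 42.3 ± 6.08 CPM (SD, n = 3), a 2.17-fold rise, with a log2 fold change of 1.12 (SE 0.18, adjusted p = 0.000842 by edgeR's quasi-likelihood test). Sprr1a was at 1713, 1570.0 and 469 CPM without transformation and at 1352, 1199.8 and 1155 CPM with it. Its untransformed libraries lay on both sides of the RasG12V range, and the log2 fold change was -0.02 (SE 0.35, adjusted p = 0.982, edgeR). Without replicate 3 of both groups it was -0.38 (SE 0.25, adjusted p = 0.278, edgeR). The sign of the Sprr1a difference turned with the library left out and with the tool, so no direction can be given for it.

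Scel was at 37.7, 39.1 and 42.9 CPM in untransformed and at 35.1, 36.0 and 38.3 CPM in RasG12V libraries. The ranges overlapped, and the log2 fold change was -0.13 (SE 0.08, adjusted p = 0.287, edgeR). Ivl was at 63.7, 59.7 and 1.88 CPM without transformation and at 16.6, 17.9 and 16.5 CPM with it. Untransformed replicate 3 held the lowest Ivl level of all 12 libraries and the other untransformed libraries the highest, a 33.9-fold spread within 1 group. With all libraries the log2 fold change of Ivl was -1.29 (SE 0.73, adjusted p = 0.234, edgeR) and did not pass. Without untransformed replicate 3 it was -1.86 (adjusted p = 8.19e-06), and without replicate 3 of both groups -1.85 (SE 0.15, adjusted p = 1.77e-07). The call for Ivl is therefore decided by 1 library. With both replicates 3 left out 4 of 6 genes passed, beside 40.0% of all genes tested.

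Upk1b, the urothelial gene, was at 7.21, 8.29 and 18.1 CPM in untransformed cells and at 2.88, 2.33 and 3.35 CPM in RasG12V cells. The groups did not overlap, and untransformed replicate 3 was the highest of all 12 libraries. Upk1b fell 3.92-fold, from 11.2 ± 5.98 to 2.85 ± 0.508 CPM (SD, n = 3), with a log2 fold change of -1.97 (SE 0.31, adjusted p = 0.000681, edgeR). Il1rn was at 1.70, 1.24 and 0.268 CPM in untransformed and at 3.68, 3.48 and 12.4 CPM in RasG12V libraries. It rose 6.08-fold, from 1.07 ± 0.732 to 6.51 ± 5.07 CPM (SD, n = 3), with a log2 fold change of 2.64 (SE 0.57, adjusted p = 0.00517, edgeR). Replicate 3 was the lowest untransformed and the highest RasG12V library for this gene. Without both of them the log2 fold change was 1.28 (SE 0.27, adjusted p = 0.000957, edgeR). With only these 2 groups in the fit, Il1rn no longer passed (adjusted p = 0.0647, edgeR).

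Cdk8 knockout cells held more RNA of all 6 genes than Cdk19 knockout cells, and the ranges of both groups stayed apart for all of them, beside 20.7% of all genes tested. This is the difference the genes were chosen on, so nothing is read from that count. Of all genes tested, 0.105% passed the threshold in this comparison. The log2 differences, Cdk8 knockout minus Cdk19 knockout, had a median of 1.08 over the 6 genes and of 0 over all genes. Upk1b differed most, with 5.94, 8.82 and 6.88 CPM in Cdk8 knockout against 2.19, 2.35 and 2.54 CPM in Cdk19 knockout libraries, which is 3.06-fold (log2 1.61, SE 0.32). Ivl was at 14.4, 16.6 and 20.1 CPM against 7.09, 5.81 and 8.80 CPM (2.36-fold, log2 1.24, SE 0.75). Sprr2h was at 73.0, 68.3 and 81.8 CPM against 31.1, 31.9 and 32.4 CPM (2.34-fold, log2 1.23, SE 0.18).

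The other 3 genes differed by less than 2-fold. Il1rn was at 9.48, 10.1 and 11.8 CPM in Cdk8 knockout and at 6.28, 3.84 and 6.53 CPM in Cdk19 knockout libraries (1.89-fold, log2 0.92, SE 0.49). Sprr1a was at 1143, 1004 and 1103 CPM against 438, 545 and 780 CPM (1.84-fold, log2 0.88, SE 0.36). Its Cdk19 knockout libraries were the most spread of that group's values for the 6 genes, with the highest 1.78-fold above the lowest. Scel had the smallest difference, at 46.1, 48.0 and 47.7 CPM against 29.2, 26.8 and 30.8 CPM (1.63-fold, log2 0.71, SE 0.08).

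The comparisons of each knockout with RasG12V share the RasG12V libraries, so their values are set side by side and not correlated. Against RasG12V, the Cdk8 knockout libraries lay apart for 4 of 6 genes, beside 12.5% of all genes tested, and the Cdk19 knockout libraries for 4 of 6, beside 14.5%. Of all genes tested, 0% and 0.0140% passed the threshold in these comparisons. Upk1b was 2.53-fold higher in Cdk8 knockout than in RasG12V cells (7.21 ± 1.47 against 2.85 ± 0.508 CPM, SD, n = 3, log2 1.33, SE 0.31), while its Cdk19 knockout level of 2.36 ± 0.178 CPM overlapped RasG12V (log2 -0.28, SE 0.33). Sprr2h stood at 74.4 ± 6.90 CPM in Cdk8 knockout, above RasG12V (log2 0.81, SE 0.18), and at 31.8 ± 0.633 CPM in Cdk19 knockout, below it (log2 -0.41, SE 0.18). Scel lay on both sides in the same way, at 47.3 ± 1.02 CPM (log2 0.38, SE 0.08) and 28.9 ± 2.01 CPM (log2 -0.33, SE 0.08) around the 36.5 ± 1.62 CPM of RasG12V cells.

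For Sprr1a and Ivl the larger difference was that of the Cdk19 knockout. Sprr1a was at 587 ± 175 CPM in Cdk19 knockout cells against 1236 ± 103 CPM in RasG12V cells (2.10-fold lower, log2 -1.07, SE 0.36), and at 1083 ± 71.4 CPM in Cdk8 knockout cells, where every library was below every RasG12V library (log2 -0.19, SE 0.35). Ivl was at 7.23 ± 1.50 CPM in Cdk19 knockout cells against 17.0 ± 0.777 CPM (2.35-fold lower, log2 -1.23, SE 0.76), and its Cdk8 knockout level of 17.1 ± 2.88 CPM overlapped RasG12V (log2 0.00, SE 0.73). The fit's error for Ivl includes the spread of the untransformed libraries. Il1rn overlapped RasG12V in both knockouts, with 10.5 ± 1.18 CPM in Cdk8 knockout (log2 0.67, SE 0.49) and 5.55 ± 1.49 CPM in Cdk19 knockout (log2 -0.24, SE 0.50). Without RasG12V replicate 3 these became 1.55 and 0.63, so the sign of the second turned with 1 library.

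**Figure D3:**
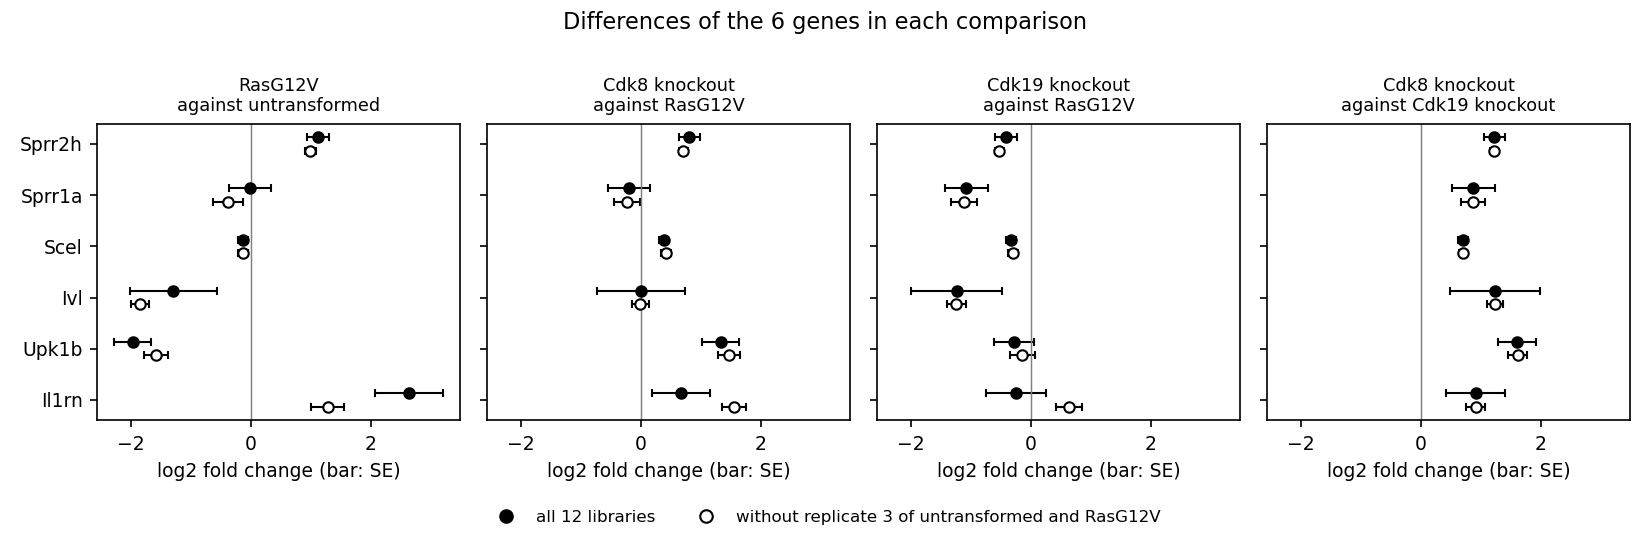
Log2 fold changes of the 6 genes in the 4 comparisons (x axis, bars: SE), with all 12 libraries (filled) and without replicate 3 of the untransformed and RasG12V groups (open). All 6 genes lie above 0 in Cdk8 knockout against Cdk19 knockout in both fits, and Il1rn crosses 0 between the fits in Cdk19 knockout against RasG12V.

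By mean level the groups ranked in different orders. Sprr2h was ordered Cdk8 knockout, RasG12V, Cdk19 knockout and untransformed, and no neighbouring groups overlapped. Scel was ordered Cdk8 knockout, untransformed, RasG12V and Cdk19 knockout, with overlap only between untransformed and RasG12V. Upk1b was highest in untransformed cells, whose libraries overlapped those of Cdk8 knockout, and RasG12V overlapped Cdk19 knockout below them. For Il1rn the order was Cdk8 knockout, RasG12V, Cdk19 knockout and untransformed, and only the untransformed libraries lay apart from all other groups. For Ivl and Sprr1a the Cdk19 knockout libraries were below those of both other transformed groups, and untransformed replicates 1 and 2 held the highest values of all 12. Untransformed replicate 3 lay within the Cdk19 knockout range for Sprr1a and below it for Ivl.

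Related genes were read from 7 lists, with the 6 genes left out. Of their 147 genes, 67 passed the filter on low counts, and with RasG12V 11 rose and 22 fell by edgeR's test, which is 49.3% against 23.4% of all genes tested. Their median log2 fold change was -0.13, beside 0 over all genes. Without replicate 3 of both groups, 15 of 73 rose and 31 fell (63.0%, against 40.0% of all genes), and all 33 genes called with every library were among them, in the same direction. In the SPRR family 1 of 13 other genes was tested. This was Sprr2g, annotated as a polymorphic pseudogene, which fell from 5.96 ± 2.48 to 1.53 ± 0.347 CPM (SD, n = 3, log2 -1.95, SE 0.32, adjusted p = 0.000789, edgeR) while Sprr2h rose. Sprr2a3 held 98 counts over the untransformed libraries, 0 over the RasG12V, 8 over the Cdk8 knockout and 0 over the Cdk19 knockout libraries. With all libraries it was too low to be tested, and without replicate 3 of both groups it passed (adjusted p = 2.38e-06, edgeR). Against a floor of 3 counts over the group, with all libraries, it was at least 30.1-fold lower in RasG12V than in untransformed cells. Its untransformed replicate 3 was at 0.0895 CPM against a group mean of 1.08 ± 0.859. Near-identical copies make counts of Sprr2a3 uncertain.

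Among cornified envelope genes and their crosslinking enzymes, 11 of 34 were tested, 2 rose and 3 fell, with a median log2 fold change of 0.08. Periplakin (Ppl), which ties the envelope to keratin filaments, fell from 193 ± 18.9 to 51.3 ± 18.4 CPM (SD, n = 3, log2 -1.91, adjusted p = 2.16e-05, edgeR). Suprabasin (Sbsn) fell from 8.31 to 1.08 CPM (log2 -2.95, adjusted p = 2.44e-05, edgeR) and the transglutaminase Tgm2 from 51.2 to 4.51 CPM (log2 -3.49, adjusted p = 5.74e-05, edgeR). Without both replicates 3 the Tgm2 change was -4.15 (SE 0.17). The uroplakin and bladder lining genes were tested in 10 of 19 cases, with 1 rise, 3 falls and a median of -0.33, and without both replicates 3 there were 2 rises and 5 falls among 12 tested. Psca, a surface protein of bladder and stomach epithelium, fell from 407 ± 33.1 to 81.4 ± 40.0 CPM (SD, n = 3, log2 -2.32, adjusted p = 3.84e-05, edgeR). Upk3b fell from 3.29 ± 2.87 to 0.143 ± 0.0662 CPM (log2 -4.51, adjusted p = 0.000317, edgeR), and without both replicates 3 its log2 change was -3.57 (SE 0.48). Aqp3, a water and glycerol channel, rose (adjusted p = 0.00185, edgeR) from 1 count over the untransformed to 30 over the RasG12V libraries. This is a ratio of 32.6 with a 95% counting interval (exact binomial) of 5.42 to 1329. The fitted log2 change of Aqp3 was 4.56 (SE 0.84) with all libraries and 5.80 (SE 1.42) without both replicates 3. Upk3bl was at 0.964 CPM in untransformed cells. In RasG12V, Cdk8 knockout and Cdk19 knockout cells Upk3bl was at 1.01, 1.58 and 1.73 CPM. With all libraries it was not called in any comparison. Without both replicates 3 it passed in Cdk19 knockout against RasG12V (log2 1.37, SE 0.32, adjusted p = 0.0329, edgeR). Upk1a, the tetraspanin closest to Upk1b, was at 0.366 to 0.557 CPM, Upk2 had 1 count in all 12 libraries and Upk3a had none.

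The interleukin-1 genes around Il1rn were tested in 14 of 26 cases, with 4 rises, 2 falls and a median of -0.07. The agonists that Il1rn competes with were near absent, with 0 counts of Il1b in all 12 libraries and 4 counts of Il1a, all of them in knockout libraries. Il1r1, the signalling receptor, rose from 1.46 ± 0.089 to 2.86 ± 0.752 CPM (SD, n = 3, log2 0.97, SE 0.21, adjusted p = 0.00473, edgeR). Its coreceptor Il1rap was too low to be tested, at 0.176 to 0.293 CPM, and the decoy receptor Il1r2 had 4 counts in all. Il1rl1, the receptor of interleukin-33, fell from 1.48 to 0.484 CPM (log2 -1.60, adjusted p = 0.000388, edgeR), and Il18, a cytokine of the same family, fell from 1.19 to 0.236 CPM (log2 -2.32, adjusted p = 0.000588, edgeR). Interleukin-33 itself (Il33) was abundant, at 314 to 559 CPM by group mean. With all libraries Il33 was not called in any comparison. Without both replicates 3 Il33 fell with RasG12V (log2 -0.83, SE 0.07, adjusted p = 1.77e-08, edgeR).

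Keratins were tested in 9 of 19 cases, with 0 rises, 4 falls and a median of -0.08, and without both replicates 3 there were 1 rise, 6 falls and a median of -0.37 among 11 tested. Krt7, a keratin of simple and ductal epithelia, fell from 506 ± 36.5 to 231 ± 44.6 CPM (SD, n = 3, log2 -1.13, adjusted p = 2.60e-05, edgeR), Krt80 fell from 21.4 to 9.12 CPM (log2 -1.24, adjusted p = 0.000311, edgeR), and Krt8 fell from 1646 to 1079 CPM (log2 -0.61, adjusted p = 0.00200, edgeR). Of the squamous and urothelial transcription factors, 18 of 29 were tested, 3 rose and 6 fell, with a median of -0.15. Grhl3, a factor required for the epidermal barrier, fell from 16.5 ± 3.73 to 0.913 ± 0.316 CPM (log2 -4.15, SE 0.25, adjusted p = 4.46e-07, edgeR). Maf fell from 7.96 to 1.43 CPM (log2 -2.45, adjusted p = 9.41e-05, edgeR), and without both replicates 3 its log2 change was -3.13 (SE 0.22). Foxa1, a pioneer factor of endoderm, rose from 9.89 to 23.0 CPM (log2 1.22, adjusted p = 7.17e-06, edgeR). Desmosome and linker genes were tested in 8 of 12 cases, with 1 rise, 4 falls and a median of -0.36. Desmoglein 2 (Dsg2) fell from 21.7 to 4.08 CPM (log2 -2.41, adjusted p = 3.17e-05, edgeR) and desmoplakin (Dsp) from 239 to 157 CPM (log2 -0.61, adjusted p = 0.000195, edgeR). Ppl is on this list as well.

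**Figure D4:**
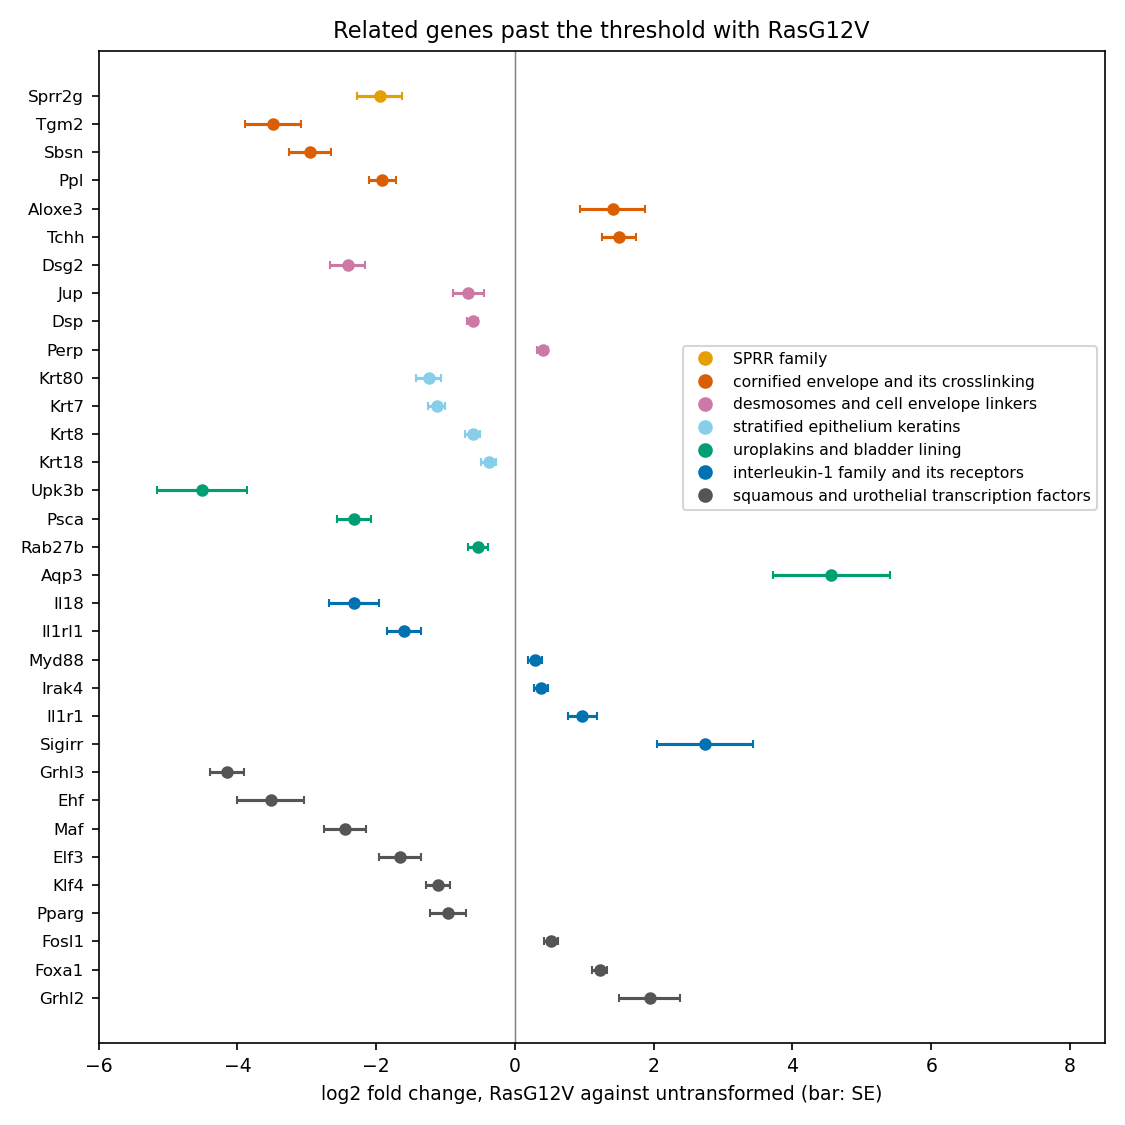
Log2 fold changes (x axis, bars: SE) of the 33 related genes past the threshold in RasG12V against untransformed cells, coloured by list, with a gene on several lists shown under its first. The 22 that fell outnumber the 11 that rose, and Upk3b (-4.51) and Grhl3 (-4.15) lie lowest. Without replicate 3 of both groups, which is not drawn, Ehf (-5.00), Grhl3 (-4.67) and Tgm2 (-4.15) lie below Upk3b (-3.57).

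In the comparisons between knockouts and RasG12V, edgeR's test called 0 of the 67 related genes in Cdk8 knockout, 0 in Cdk19 knockout and 0 between the knockouts, where 7, 7 and 14 had an unadjusted p under 0.05. DESeq2 called 0, 1 and 3 of them and limma-voom 0, 0 and 0. Over all genes tested edgeR called 0, 2 and 15, with 871, 1089 and 1027 at an unadjusted p under 0.05. These counts depend on the libraries that stood apart. Without replicate 3 of the untransformed and RasG12V groups, 5, 9 and 14 of 73 related genes passed, beside 231, 291 and 771 of all genes (1.59%, 2.01% and 5.32%). In Cdk8 knockout against RasG12V all 5 were higher, among them Psca, Grhl3, Ppl and Il33. In Cdk19 knockout against RasG12V 4 were higher (Psca, Upk3bl, Krt7 and Krt80) and 5 were lower, Dsg2, Dsp and Il33 among them. Between the knockouts 12 were higher in Cdk8 knockout, Dsg2, Dsp and Il33 among them, and 2, Krt7 and Krt80, were lower there. Between the knockouts the related genes had a median log2 difference of 0.15, beside 1.08 for the 6 genes, which were picked for that difference.

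Markers were read to see which cell types the cultures could hold. The liver progenitor and epithelial markers summed to 6025 to 9575 CPM, led by Krt18, Krt19 and Krt8, with 9 or 10 of 12 at 1 CPM or more in each group. Epcam, with 4 to 9 counts per group, and Onecut1 stayed below 1 CPM in every group, and Alb did so in the transformed groups. Of the basal keratinocyte markers, 1 of 7 reached 1 CPM, the integrin Itgb4, and the list summed to 139 to 354 CPM. Trp63, the master factor of stratified epithelia, had 5, 0, 1 and 1 counts in the untransformed, RasG12V, Cdk8 knockout and Cdk19 knockout groups, and Krt14 had 4, 0, 1 and 1. Several defining genes of the cornified envelope were also near absent. The envelope protein loricrin (Lor) had 6 to 15 counts per group, the keratinocyte transglutaminase Tgm1 6 to 11 and filaggrin (Flg) 0 to 3. Hrnr, Krtdap and Klk5 had 0 counts everywhere. Other genes of the cornified envelope list were abundant. Their group means were 950 to 1154 CPM for Anxa1, 610 to 780 for S100a10, 568 to 668 for S100a11 and 145 to 176 for Cstb. The urothelial markers, a list that holds Upk1b itself, summed to 523 to 914 CPM, led by Krt20 and Psca, with Upk3a at 0 counts everywhere and Upk2 at 0 in the transformed groups. Mesothelial markers summed to 2804 to 4247 CPM, nearly all of it Krt19 and Msln, with 3 or 4 of 7 at 1 CPM or more. Macrophage and leukocyte markers summed to 33.7 to 60.5 CPM, from Cd14 and Cd68, while Adgre1 and Tyrobp had 0 counts everywhere. Fibroblast and stellate markers summed to 0.533 to 2.28 CPM. The part of these other cell types in the 6 genes' differences was not tested.

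The genes whose pattern over the 12 libraries came nearest to each of the 6 were found by the root mean square difference in centred log2 CPM, among 11164 protein-coding genes whose mean reached 1 CPM in any group. The points share library and depth, so these are descriptions. A library far from its group can weigh heavily in such a difference. Against the mean of replicates 1 and 2, replicate 3 stood at log2 -5.04 for Ivl in untransformed cells. For Il1rn it stood at log2 -2.45 in untransformed and 1.79 in RasG12V cells. The part of these libraries in the choice of neighbours was not tested. Scel had the closest neighbours, Gldc and Gimd1 (0.13 each) and Arl4c (0.15), against a spread of Scel about its own mean of 0.26. Sprr2h was nearest to Cnksr2 (0.28), Clca3a1 (0.30) and Tmem56 (0.31), with a spread of 0.74 of its own. Genes near Sprr1a included Pde6a (0.38) and F3 (0.39), beside a spread of 0.63 of its own. Upk1b was nearest to Bnc1 (0.42), Epb41l3 (0.45) and Acot1 (0.46), with a spread of 0.94. Ivl, with a spread of 1.32, was nearest to Anxa10 (0.49), Crisp1 (0.52) and its cluster neighbour Sprr1a (0.80). Anxa10 averaged 43.9, 27.0, 39.3 and 14.3 CPM and Crisp1 81.9, 70.6, 73.3 and 19.9 CPM in untransformed, RasG12V, Cdk8 knockout and Cdk19 knockout cells. Il1rn had the widest spread (1.48) and the most distant neighbours, Calcrl (0.59), Egr3 and Wnt5a (0.63 each). Among the 6 genes, Sprr1a and Scel were the closest pair (0.58) and Upk1b and Il1rn the most distant (2.11).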

How the data were processed

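The authors deposited read counts per gene for 12 libraries, and the submitters' processing notes name FastQC, STAR 2.6.0a and GRCm38.p6, while the annotation release is not given in the sources used here. Reverse-strand counts were used, 24.7 to 28.9 times the forward-strand counts in every library (rule: at least 4). Reads without a gene (33.0% to 34.8%) were left out. Of 54146 identifiers, 54079 matched GENCODE M21 and 67 did not. Counts were fitted with edgeR 4.0.16 (filterByExpr by group, TMM, robust glmQLFit, glmQLFTest, all 12 libraries, no block), in R 4.3.3, with Benjamini-Hochberg adjustment over 14283 genes and a threshold of 0.05, after a check on simulated data. SE is the absolute log2 fold change over the square root of F. Alternatives used limma 3.58.1 and DESeq2 1.42.0. Figures were drawn with matplotlib 3.10.9.

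The 6 genes, 7 lists of related genes and 6 marker lists were chosen with earlier results of these data known. Named genes are the 6, Cdk8, Cdk19, Hras, up to 3 called genes per list by adjusted p, SPRR and uroplakin genes at 1 CPM or more, the interleukin-1 ligands and receptors and the 3 nearest patterns per gene. A gene that meets this rule is not reported here. Upk1a, Upk2, Upk3a, Ehf, Il33, the envelope genes near 0, Anxa1, S100a10, S100a11, Cstb and single marker genes were named after their values were seen. Promoter windows are from RefSeq (GRCm38.p6).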

Additional observations from a re-analysis of the deposited data

How the results depend on the processing

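Besides the exceptions given here and those given with their values above, the results kept their direction and their side of the threshold. This held under RLE and upper quartile scaling, other filters, the unstranded counts, DESeq2, limma-voom and fewer libraries or groups. The causes of the exceptions were not tested. Ivl in Cdk8 knockout against RasG12V, near 0, ranged from -0.13 to 0.12 without 1 library at a time. The Sprr1a change with RasG12V turned to 0.19 with limma-voom and ranged from -0.41 to 0.26 without 1 library at a time. Without replicate 3 of both untransformed and RasG12V, genes called came to 5799 for RasG12V against untransformed, 231 for Cdk8 knockout and 291 for Cdk19 knockout against RasG12V and 771 between the knockouts, related genes called to 5, 9 and 14 in the last 3, and 1 of the 6 genes, Il1rn, was above RasG12V in Cdk19 knockout. With no filter on low counts, all genes called came to 16, 84 and 108 in the 3 comparisons with knockouts and related genes to 2 (Cdk19 knockout against RasG12V) and 3 (between the knockouts); with DESeq2 to 30, 66 and 113, and related genes to 1 and 3. With only the groups compared in the fit, 1574 genes were called for RasG12V against untransformed, 1 for Cdk19 knockout against RasG12V and 496 between the knockouts, 11 of them related. Leaving out 1 library at a time gave 2359 to 4808, 0 to 3, 0 to 21 and 0 to 133 genes called in the 4 comparisons, 28 to 40, 0 to 0, 0 to 1 and 0 to 4 related genes, 3 to 4 of the 6 genes called with RasG12V, and 4 to 5, 0 to 1 and 6 to 6 of them higher in the comparisons with knockouts.

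Whether the replicate numbers pair the libraries is not settled by these counts. Deviations correlated over 0.1 in 8 of 18 same-numbered pairs (r -0.17 to 0.28) and in 6 of 36 other pairs (r -0.29 to 0.22). Of the 12 libraries, 5 correlated best with their own number. With the replicate block, the Sprr1a change with RasG12V was 0.02 and 1 gene was called for Cdk8 knockout against RasG12V; no other result changed its direction or its side of the threshold.

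Depth limits Il1rn in untransformed cells (97 counts) and the low related genes. With 3 libraries a group and 2 of them apart from their replicates, a comparison that did not pass is not shown to be without a difference.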
